A study of Rattus norvegicus with 48 samples.

Results

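A set of 109 genes differed alike from fed rats after 1, 2 and 3 days without food in cerebral endothelial cells (CECs), the cells that line the brain's blood vessels. Of these, 67 were higher in the fasted rats (the rises) and 42 were lower (the falls). The genes were chosen on the values described here. Reads of each sample were expressed as counts per 1000000 reads assigned to genes (CPM) and put on a log2(CPM + 0.1) scale. A gene was a member when its means in the 3 fasted groups all lay at least 0.5 above, or all at least 0.5 below, the mean of the fed group, and when the 3 fasted means lay within 0.5 of each other. The rule was applied to 9461 genes with a mean of at least 100 reads over the 12 samples, of 32624 features in the files, so that the rises made up 0.708% and the falls 0.444% of the genes considered.

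CECs came from the cerebral cortex of male Wistar-Han rats with free access to food (AL, ad libitum) or after fasts of 1 day (F1), 2 days (F2) or 3 days (F3). Microglia and other CD11b-positive cells were depleted and CD31-positive cells were retained. For each isolation 4 rats were used, tissue was pooled by 2 cortices for its first steps, and each group held 3 samples, named i, j and k, from independent experiments. Each sample had been sequenced as 4 technical replicates, which were summed, and held between 20718644 and 25960874 reads. The one defining endothelial marker with a name in these data, Pecam1 (CD31 itself), lay between 1310 and 1589 CPM in the 12 samples. Of the other cells' markers, the pericyte markers Abcc9 and Anpep summed to 61.4 to 189 CPM and varied within groups, from 76.5 to 182 CPM among AL samples and from 61.4 to 172 CPM among F3 samples. The smooth muscle marker Acta2 reached at most 15 CPM and 6 microglia and macrophage markers together at most 5.55 CPM, and the astrocyte marker Aldoc lay between 62.9 and 96.0 CPM. The blood cell markers Alas2 and Bpgm summed to 35.8 to 43.7 CPM, and the oligodendrocyte marker Aspa reached at most 1.45 CPM. Of 77 cell type markers looked for, 14 had a name here, and none of these was a member. For neurons and for fibroblasts and meninges 0 markers had a name, so those cells were not looked at. In bulk samples such as these, fewer cells of a type and less RNA per cell cannot be told apart, and the part of other cells in the values below was not tested.

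During a fast, insulin falls, fatty acids are released from fat stores and the liver turns them into ketone bodies, which the brain then uses beside glucose. CECs form the blood-brain barrier and carry these fuels into the brain through transporters in their membranes. They respond to hormones and nutrients in the blood through, among others, FoxO transcription factors, which insulin holds out of the nucleus, and PPAR factors, which bind fatty acids.

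The selected differences were of moderate size and, within each direction, similar from day to day, as the rule demands. The median rise stood 0.81, 0.71 and 0.96 above AL on the log2 scale at F1, F2 and F3, and single rises ranged from 0.50 to 2.15. The median fall stood at -0.63, -0.66 and -0.80, and single falls ranged from -0.50 to -1.39. Over all 9461 genes the median difference was -0.06, -0.06 and -0.05. At least 1 log2 unit on every fasting day was reached by 10 rises and by 0 falls. The comparisons share the 3 AL samples, so that their differences are not independent of one another.

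**Figure D1:**
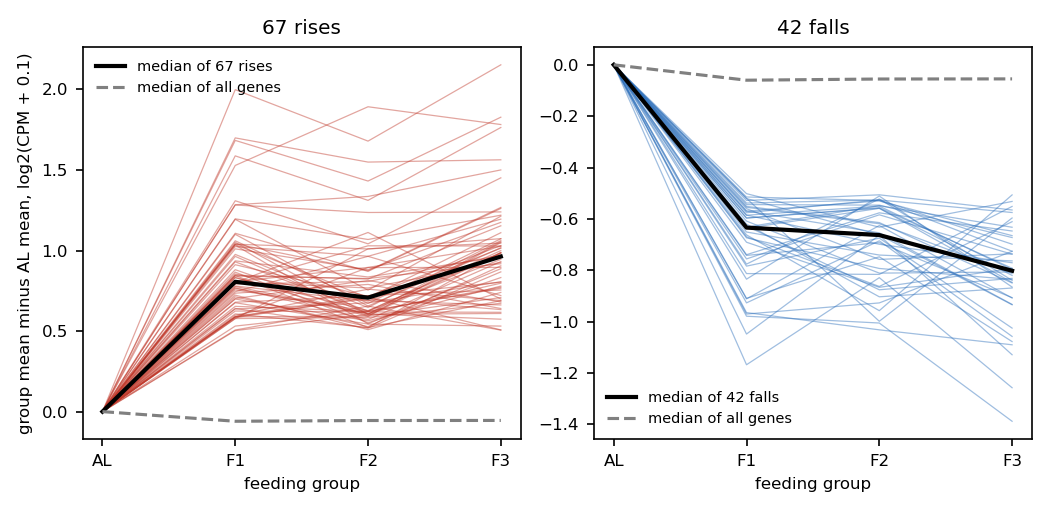
Mean of each fasted group minus the AL mean (vertical axis, log2(CPM + 0.1)) in the 4 feeding groups (horizontal axis), with 1 thin line per member, 67 rises on the left and 42 falls on the right. The black line is the median of the members and the dashed grey line the median of all 9461 genes, which stays near 0 while the members lie 0.5 or more away by the rule that chose them.

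The limits of the rule cut through a continuum. The smallest differences of the last 2 rises inside the limit were 0.503 and 0.506, and those of the next 2 genes outside it were 0.497 and 0.493. For the falls, measured downwards from AL, they were 0.502 and 0.506 inside and 0.495 and 0.489 outside. The widest spread of the 3 fasted means was 0.489 and 0.474 in rises inside the limit and 0.505 and 0.518 outside it, and 0.479 and 0.465 against 0.504 and 0.526 for the falls. Mean reads started at 103 in the rises and 122 in the falls, against 95.2 and 97.7 in the nearest genes left out for their reads.

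Most genes that differed from AL on days 1 and 3 did not meet the rule. Of 240 genes at least 0.5 above AL at F1 and F3, 148 were less than 0.5 above it at F2, and 25 of the other 92 were left out because the fasted means spread over more than 0.5. Of 206 genes at least 0.5 below AL at F1 and F3, 147 were less than 0.5 below it at F2, and 17 of the other 59 had a wider spread. Where the spread was too wide, the F3 mean was the farthest from AL in 19 of the 25 higher genes and in 14 of the 17 lower ones.

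Within the set, F3 was most often the day farthest from AL. This held for 48 of 67 rises and 28 of 42 falls, against 43.9% of all genes. F2 was the day closest to AL for 41 of 67 rises and 20 of 42 falls, the latter near the 48.7% of all genes. These counts are descriptions, since the same group means chose the members. The spread of the 3 fasted means had a median of 0.24 in rises and 0.25 in falls, and was smaller than the gene's own SD between samples of a group in 32 rises and 23 falls.

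Symbols could be given to 17 of the 109 members, because the sources of names cover 2043 features, most of them early in the alphabet. Of the 1264 genes with a symbol that passed the filter on reads, 1.34% were members, and of the 8197 without one, 1.12%. A pair of the 17 symbols are clone names, which leaves 8 named rises and 7 named falls. All 15 are described here by what their products do, with CPM in samples i, j and k in that order. The standard error (SE) of a difference comes from the spread within the 4 groups and has 8 degrees of freedom.

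Akap12 (ENSRNOG00000019549) had the largest difference of the named rises. It encodes a scaffold that anchors protein kinases A and C at the cell membrane and has been linked to the formation of the blood-brain barrier. It was counted at 89.5, 102 and 62.4 CPM in AL samples, at 214, 206 and 156 CPM in F1, at 181, 158 and 185 CPM in F2 and at 240.4, 151 and 198 CPM in F3. All 9 fasted samples lay above all AL samples. The means were 84.6 ± 20.2 CPM in AL (SD, n = 3), 192 ± 31.3 in F1, 174 ± 14.7 in F2 and 197 ± 44.7 in F3, and the differences on the log2 scale were 1.20, 1.07 and 1.22 (SE 0.23). Of the 11 A-kinase anchoring genes (Akap) that passed the filter on reads, Akap12 was the 1 member, and the other 10 lay between -0.42 and 0.17 from AL on all days.

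Lipid and heme synthesis were each represented by an enzyme. Agpat2 (ENSRNOG00000019466) adds the second fatty acid to the glycerol backbone on the way to phospholipids and triglycerides. The gene stood at 33.5, 52.9 and 26.0 CPM in AL, at 76.6, 75.2 and 67.6 CPM in F1, at 84.1, 67.3 and 60.6 CPM in F2 and at 96.3, 65.8 and 87.6 CPM in F3. The lowest fasted sample stood above the highest AL sample, AL j, which had the level closest to the fasted range. Its differences were 1.02, 0.96 and 1.20 (SE 0.26), while the other 4 Agpat genes lay between -0.32 and 0.42 from AL.

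Alas1 (ENSRNOG00000056596) encodes the first and rate-limiting enzyme of heme synthesis in cells other than red cell precursors, and is known to respond to fasting in the liver. It was counted at 533, 611 and 455 CPM in AL, at 1111, 869 and 893 CPM in F1, at 951, 919 and 939 CPM in F2 and at 1265, 1171 and 1101 CPM in F3. The fasted samples did not overlap the AL samples, and the F3 samples lay above those of F1 and F2, except that F1 i lay above F3 k. The differences were 0.85, 0.82 and 1.15 (SE 0.12), which correspond to ratios to AL of 1.80, 1.77 and 2.22. The red cell form Alas2 was at a mean of 2.22 CPM, under the filter on reads.

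Galactosyltransferases extend the sugar chains of glycoproteins and glycolipids, and 1 gene of each of 2 families was a rise. B4galt4 (ENSRNOG00000003114) was counted at 52.3, 63.0 and 55.5 CPM in AL, and between 76.8 and 99.7 CPM in the 9 fasted samples, with no overlap. Its differences of 0.58, 0.58 and 0.67 (SE 0.12) lay close to the limit of the rule on each day. The other 5 B4galt genes that passed the filter lay between -0.19 and 0.33.

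B3galt5 (ENSRNOG00000030983) was counted at 31.9, 39.1 and 23.8 CPM in AL, at 49.3, 55.7 and 40.8 CPM in F1, at 48.2, 36.9 and 68.2 CPM in F2 and at 57.0, 53.9 and 51.9 CPM in F3. The groups overlapped, because F2 j lay below AL j. Its differences were 0.64, 0.68 and 0.81 (SE 0.25).

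Slc2a12 (ENSRNOG00000011161) encodes GLUT12, a carrier of glucose that differs from GLUT1, the main glucose carrier of the barrier. Its level was 77.4, 76.5 and 102 CPM in AL, at 162, 161 and 161 CPM in F1, at 177, 78.9 and 159 CPM in F2 and at 156, 187 and 167 CPM in F3. All fasted samples except F2 j lay above all AL samples, and F2 j lay among them. The difference at F2 was 0.62 from group means (SE 0.28) and 0.93 and 1.00 at F1 and F3. With medians in place of means, the smallest of the 3 differences was 1.04.

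Arrdc3 and Angpt2 act on signals at the cell surface. Arrdc3 (ENSRNOG00000045649) encodes an alpha-arrestin, an adaptor that takes membrane receptors to ubiquitin ligases and to degradation. The samples held it at 303, 219 and 203 CPM in AL, at 365, 308 and 362 CPM in F1, at 433, 309 and 368 CPM in F2 and at 419, 406 and 396 CPM in F3. Groups did not overlap, but AL i lay close to the lowest fasted samples, F1 j and F2 j. The differences were 0.53, 0.62 and 0.77 (SE 0.17), and the relatives Arrdc1 and Arrdc2 lay between -0.30 and 0.38.

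Angpt2 (ENSRNOG00000016696), a ligand of the endothelial receptor Tie2 that opposes angiopoietin 1 and is a FoxO1 target in endothelium, was counted at 27.2, 52.7 and 30.5 CPM in AL. It was counted at 54.3, 69 and 57.5 CPM in F1, at 55.9, 58.0 and 47.9 CPM in F2 and at 56.7, 46.3 and 55.2 CPM in F3. AL j lay within the fasted range, above F2 k and F3 j, so the groups overlapped. The differences were 0.76, 0.61 and 0.57 (SE 0.24), the smallest was 0.86 without AL j and 0.39 without AL i, and Angpt2 was the 1 named rise farthest from AL at F1.

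**Figure D2:**
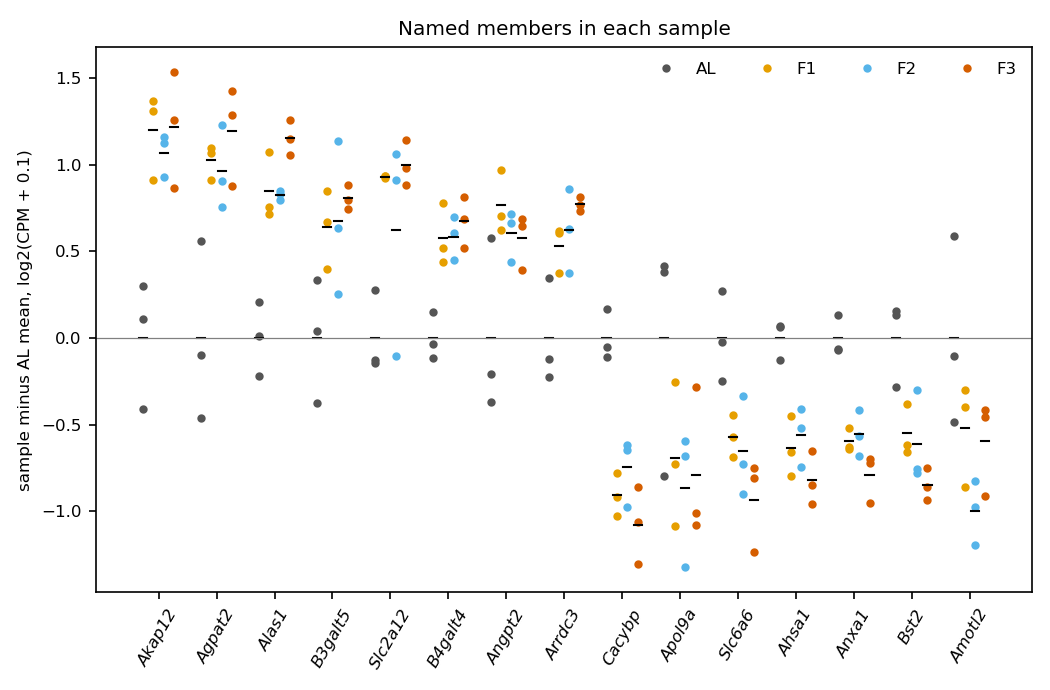
Level of the 15 named members in each of the 12 samples (points) minus the AL mean of the gene (vertical axis, log2(CPM + 0.1)), coloured by feeding group, with a short black line at each group mean. Slc2a12 shows 1 F2 sample at the AL level, Apol9a shows 1 AL sample at the fasted level, and the AL samples of Agpat2, Angpt2 and Amotl2 are widely spread.

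Members without a symbol held the largest values of the set. The IDs given here were chosen after their values had been seen. ENSRNOG00000007302 had the largest difference of all rises, with 4.6, 7.48 and 6.56 CPM in AL and 13.4 to 37.1 CPM in the fasted samples. Its differences were 2.00, 1.68 and 2.15 (SE 0.37).

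ENSRNOG00000007393 took the most reads of all members and ranked as number 6 of all features by mean CPM. The gene stood at 2475, 3382 and 1865 CPM in AL, at 8332, 8236 and 7541 CPM in F1, at 7954, 6269 and 6142 CPM in F2 and at 10136, 8231 and 8370.5 CPM in F3. The lowest fasted sample was well above the highest AL sample, and the differences were 1.68, 1.43 and 1.83 (SE 0.21). Together, the 67 rises took 7068 to 10555 CPM in AL samples and 15952 to 23017 CPM in fasted samples. Without this 1 gene they took 5203 to 7173 CPM in AL and 9810 to 12881 CPM in fasted samples, sums over genes that the rule chose for this direction.

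Among the falls, the heat shock system was represented by Cacybp and Ahsa1. Chaperones of this system fold other proteins, and co-chaperones set their activity. Cacybp (ENSRNOG00000002572), the calcyclin binding protein and a partner of the ubiquitin ligase Siah1, had the largest difference of the named falls. The level was 63.8, 66.4 and 77.4 CPM in AL, at 33.7, 40.2 and 36.4 CPM in F1, at 43.9, 45 and 34.9 CPM in F2 and at 37.9, 32.9 and 27.8 CPM in F3. Every fasted sample lay below every AL sample. The differences were -0.91, -0.75 and -1.08 (SE 0.15), or ratios to AL of 0.532, 0.596 and 0.474.

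Ahsa1 (ENSRNOG00000048981), which activates the ATPase of Hsp90, was counted at 105, 119 and 119.8 CPM in AL, at 65.7, 83.7 and 72.3 CPM in F1, at 79.7, 85.9 and 68.2 CPM in F2 and at 72.8, 63.5 and 58.8 CPM in F3, again without overlap. Its differences were -0.64, -0.56 and -0.82 (SE 0.13). Its relative Ahsa2 stood at -0.47, -0.39 and -0.60 (SE 0.11), which missed the rule on the first 2 days, and Bag3, a co-chaperone of Hsp70, at -0.23, -0.34 and -0.34. These were the 4 genes of a list of 25 heat shock chaperones and co-chaperones that had a symbol here, 2 of them members.

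The 150 bases before the Cacybp start are shown because they hold the core of a heat shock element, GAANNTTC, printed in capitals, at bases -12 to -5 from the start. The sequence is from RefSeq, on the minus strand of GRCr8, chr13:74981240-74981389, and the last base printed is the one before the start.

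Cacybp: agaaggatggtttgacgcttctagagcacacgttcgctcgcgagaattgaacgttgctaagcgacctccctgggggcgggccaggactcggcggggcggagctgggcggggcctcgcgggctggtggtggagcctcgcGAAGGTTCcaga

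This core, on either strand, was found in 8.59% of 33469 RefSeq promoters of the same length (250 bases before to 50 after the start), and in 2 of 7 promoters of named falls and 0 of 7 of named rises. The other was that of Bst2, at bases -192 to -185. The Ahsa1 promoter held no match to these letters.

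Bst2 and Apol9a belong to genes induced by interferons, the signals of antiviral defence. Bst2 (ENSRNOG00000059900), or tetherin, holds enveloped viruses at the cell surface. It was counted at 177, 239.9 and 236 CPM in AL, at 137, 140.4 and 166 CPM in F1, at 125, 175 and 127 CPM in F2 and at 113, 128 and 119 CPM in F3. The groups did not overlap, but AL i lay close to the highest fasted sample, F2 j, and the differences were -0.55, -0.61 and -0.85 (SE 0.17). The rule still chose Bst2 in 9 of 12 ways to leave 1 sample out, and in 17 of all 23 alternatives.

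Apol9a (ENSRNOG00000023410), of the apolipoprotein L family, was counted at 16.1, 37.4 and 36.5 CPM in AL, at 16.9, 13.1 and 23.4 CPM in F1, at 11.1, 18.5 and 17.5 CPM in F2 and at 13.8, 23.0 and 13.2 CPM in F3. AL j and AL k lay above all fasted samples and AL i lay among them. The differences were -0.69, -0.87 and -0.79, with an SE of 0.41 that was large beside them. Without AL i the smallest was -1.09, and with medians -1.06. The paralog Apol3 lay between -0.34 and 0.03 and Apol11a between -0.67 and -0.16. Reads shared among near-identical copies in this family could have been removed or misassigned by the counting, so that the value of Apol9a is uncertain.

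The fall ENSRNOG00000017414, without a symbol and chosen after its values had been seen, had the same order of AL samples. It was counted at 93.5, 247 and 239.7 CPM in AL and at 47.0 to 131 CPM in the fasted samples. AL i lay within the fasted range, so the groups overlapped. The ratios to AL were 0.512, 0.489 and 0.470 at F1, F2 and F3. In all 3 genes AL i was the lowest AL sample, as it was for 23 of all 42 falls. What the gene without a symbol does is not known here, and a link to interferons was not tested. Of a list of 32 genes of interferon response and leukocyte adhesion, 5 had a symbol, and Bst2 was the 1 member. Casp1 stood at -0.84, -0.41 and -0.90, B2m at -0.09, 0.05 and -0.04, and Casp4 at -0.27, 0.09 and -0.23 (SE 0.15). Ccl2, at a mean of 0.17 CPM, was under the filter on reads.

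The promoters of Bst2 and Apol9a are shown because both hold an element of interferon-stimulated genes, GAAANNGAAA, in 2 overlapping copies, printed in capitals (in the other orientation in Apol9a). This motif was added after the data had been seen. The windows are the 150 bases before the start, from RefSeq on GRCr8, at chr16:18254968-18255117 for Bst2 and at chr7:111028214-111028363 for Apol9a, both on the minus strand.

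Bst2: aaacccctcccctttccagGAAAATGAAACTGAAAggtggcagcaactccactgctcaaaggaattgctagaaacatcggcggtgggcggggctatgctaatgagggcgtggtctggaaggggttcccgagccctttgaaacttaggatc
Apol9a: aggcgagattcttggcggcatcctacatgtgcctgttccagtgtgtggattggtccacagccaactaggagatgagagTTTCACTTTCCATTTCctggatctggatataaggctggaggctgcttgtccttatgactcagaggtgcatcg

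The copies start at bases -131 and -125 in Bst2 and at -72 and -66 in Apol9a. The element was found, on either strand, in 3.92% of the 33469 promoters, and in 2 of 7 promoters of named falls and 1 of 7 of named rises, that of Slc2a12, where it began at the last base before the start. A match is a description of the letters and not of binding.

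The other motifs were also searched on either strand of the 14 promoters of named members. The FoxO core TGTTTAC, the E-box CACGTG and the cyclic AMP element TGACGTCA were in 0 of 14, against 3.78%, 6.42% and 1.83% of all promoters. AGGTCA, only part of a PPAR element, was in those of Akap12, B3galt5, Amotl2, Bst2 and Slc6a6, 5 of 14, against 16.2% of all. A whole PPAR element was not searched for, so these matches do not count PPAR sites. The letters TATAAA were in the promoters of Anxa1 and Slc6a6, 2 of 14, against 14.2% of all. Angpt2 had no entry in the promoter table.

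Slc6a6 (ENSRNOG00000009019) encodes the carrier of taurine, an amino acid that CECs take up from blood. Its level was 585, 502 and 719 CPM in AL, at 369.6, 400.2 and 437 CPM in F1, at 360.1, 319 and 472 CPM in F2 and at 252, 339 and 354 CPM in F3. The highest fasted sample, F2 k, lay below the lowest AL sample, AL j. The differences were -0.57, -0.65 and -0.93 (SE 0.20).

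Anxa1 (ENSRNOG00000017469), a calcium-dependent membrane binding protein that limits inflammation and is induced by glucocorticoids, was counted at 22.4, 22.3 and 25.6 CPM in AL. The gene stood at 16.3, 15 and 15.1 CPM in F1, at 14.5, 15.8 and 17.5 CPM in F2 and at 14.4, 14.1 and 12 CPM in F3, with no overlap. Its differences of -0.60, -0.56 and -0.79 had the smallest SE of the named members, 0.10. The other 8 annexins lay between -0.47 and 0.61, the upper end being Anxa9 at F3.

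Amotl2 (ENSRNOG00000008487) links junctions of endothelial cells to actin and binds the growth regulator YAP. The samples held it at 42.5, 32.7 and 69 CPM in AL, at 25.2, 37.2 and 34.7 CPM in F1, at 20.0, 23.2 and 25.8 CPM in F2 and at 34.2, 33.3 and 24.3 CPM in F3. F2 was the one group whose samples all lay below all AL samples, and the differences were -0.52, -0.999 and -0.60 (SE 0.29). The smallest of the 3 was -0.22 without AL k, -0.35 without F1 i, -0.29 with medians and -0.46 with TMM library sizes, all short of the rule. Its relative Amot stood at -0.47, -0.39 and -0.47 (SE 0.10), just outside the rule on all days, and Amotl1 between -0.33 and 0.09.

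ENSRNOG00000012686, without a symbol and chosen after its values had been seen, lay farthest from AL of all falls on the day it came closest. The level was 17.1, 19.3 and 17.7 CPM in AL and at 5.62 to 12.2 CPM in the fasted samples, with no overlap, and its differences were -0.98, -1.01 and -1.39 (SE 0.23). Together, the 42 falls took 3638 to 4574 CPM in AL samples and 2108 to 2748 CPM in fasted samples.

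**Figure D3:**
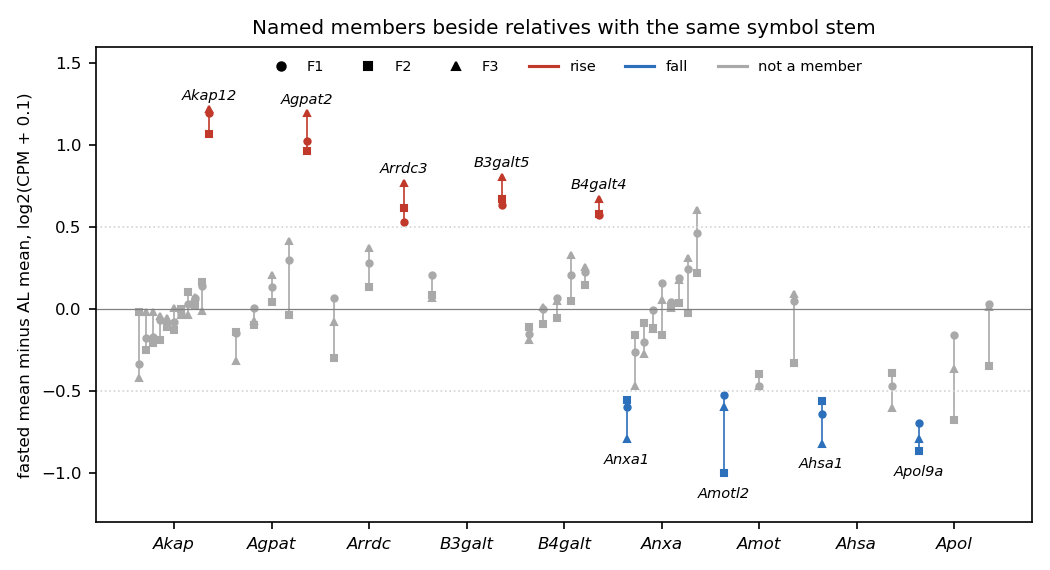
Difference of each fasted group mean from AL (vertical axis, log2(CPM + 0.1)) for named members and for genes with the same symbol stem that passed the filter on reads, with a circle for F1, a square for F2 and a triangle for F3 joined by a line for each gene. Rises are red, falls blue and other genes grey, and the dotted lines mark 0.5 above and below AL. Most grey relatives lie between the dotted lines, and those past one of them on some day are Anxa9, Ahsa2 and Apol11a.

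Genes with a symbol just outside the rule resembled the members. Bola1 (0.47, 0.51 and 0.51; SE 0.22) and Slc52a2, a riboflavin carrier (0.47, 0.54 and 0.61; SE 0.08), missed the limit at F1 alone. Arhgef15 (-0.62, -0.48 and -0.83; SE 0.06) and Afap1l1 (-0.67, -0.45 and -0.88; SE 0.09) missed it at F2 alone. The glutamate carrier Slc1a1 (1.12, 0.58 and 0.96; SE 0.37) and the actin regulator Baiap2 (1.11, 0.72 and 1.27; SE 0.10) were past 0.5 on all days with fasted means spread over 0.53 and 0.55.

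Over 18 pathway lists with 412 genes, 97 genes had a symbol here, and 5 were members, on 5 of the lists. Those not yet named beside a list are Angpt2, on those of FoxO targets and of angiogenesis, and Akap12, on that of actin regulators and anchoring proteins. Of 9 PPAR target genes with a symbol, 0 were members. Among them Slc16a1, the carrier of lactate and ketone bodies MCT1, stood at 0.50, 1.24 and 0.76 (SE 0.17), past the limit on all days, and missed the rule by the spread of its fasted means. The quasi-likelihood test of edgeR was used, with p-values adjusted by Benjamini and Hochberg's method over 13050 genes. In it, these 9 PPAR target genes held 3 calls higher and 1 lower at F1, 1 and 0 at F2, and 4 and 1 at F3. Of all 13050 genes, it called 3.92% higher and 2.64% lower at F1, 0.536% and 0.383% at F2, and 6.28% and 5.73% at F3. Of 11 blood-brain barrier genes with a symbol, 0 were members. The glucose carrier Slc2a1 was called higher at F1 and F3. Cav1 and Slco1a4 were called lower at F1, and both together with Cav2 and Slco1c1 lower at F3. At F2, 0 of the 11 were called, which does not mean no difference. Slc2a1 stood at 0.38, 0.37 and 0.48 (SE 0.06) at F1, F2 and F3, short of the limit on each day. Cav1 stood at -0.46, -0.36 and -0.74 (SE 0.10) and Slco1a4 at -0.42, -0.15 and -0.48 (SE 0.09). The lists had few genes with a symbol, so the counts describe those genes and not the pathways.

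Of the 67 rises, 54 were called higher at F1, 26 at F2 and 58 at F3 at an adjusted p of at most 0.05 in the same edgeR test, which called 3.92%, 0.536% and 6.28% of all genes higher. Of the 42 falls, 23 were called lower at F1, 15 at F2 and 27 at F3, beside 2.64%, 0.383% and 5.73% of all 13050 genes. A fit of only the 9461 genes that passed the filter on reads called 53, 26 and 59 rises. Beside them it called 5.46%, 0.782% and 8.85% of these 9461 genes higher. It called 23, 17 and 27 falls, beside 4.26%, 0.539% and 7.71% of these genes lower. The same contrasts chose the members, so nothing is read from these counts. On all days 26 rises were called higher, beside 0.406% of all genes, and 15 falls lower, beside 0.245%. For 8 rises no day gave a call higher, as for 93.2% of all genes, and for 15 falls no day gave a call lower, as for 93.9%. Of the named members, Akap12, Alas1, B4galt4, Cacybp and Anxa1 were called on all days, and Apol9a and Amotl2 on none. When the 6 samples of F2 and AL were fitted alone, edgeR called 0 rises and 0 falls at F2. An unadjusted p under 0.05 in this fit was reached by 62 rises and 38 falls, beside 4.63% of all genes higher and 4.41% lower. The means of these samples also chose the members, so nothing is read from these counts either. DESeq2 called 47 rises and 27 falls at F2, beside 1.80% of 11026 genes higher and 1.46% lower.

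All 9 fasted samples lay above all AL samples for 46 of 67 rises, beside 2.31% of all genes, and below them for 25 of 42 falls, beside 6.33% of all genes. With the effective library sizes of TMM, the normalization of edgeR, the shares of all genes were 3.10% above and 4.06% below. There 47 of the rises and 24 of the falls did not overlap. These counts are descriptions, since the same samples chose the members. Under TMM the rule itself chose 80 rises and 27 falls in place of 67 and 42, and with the size factors of DESeq2 80 and 28. The median difference over all genes moved by less than 0.1 between these scalings, and 66 of the 67 rises and 27 of the 42 falls were chosen under TMM too.

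The samples of a group differed more in the members than in other genes. The SD within groups had a median of 0.28 in rises and 0.23 in falls on the log2 scale, against 0.13 over all genes. Deviations from group means also went together within the set. The median correlation between 2 rises over the 12 samples was 0.33, between 2 falls 0.17, and between any 2 genes 0.02. These values are descriptions, since the same samples chose the members.

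Part of this common variation lay in the AL samples. Relative to the AL mean, the median rise stood at 0.04 in AL i, 0.25 in AL j and -0.26 in AL k. AL j was the highest and AL k the lowest AL sample for the same number of rises, 46 of 67 each, against 21.6% and 26.5% of all genes. The median fall stood at -0.09 in AL i, 0.02 in AL j and 0.21 in AL k, and AL i was the lowest AL sample for 23 of 42 falls against 28.8% of all genes. In the 9 fasted samples the median rise lay between 0.66 and 1.08 and the median fall between -0.54 and -0.95. In each case these medians lay apart from the AL samples. The rule asked for this distance, since it placed each fasted group mean of a member at least 0.5 from AL.

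**Figure D4:**
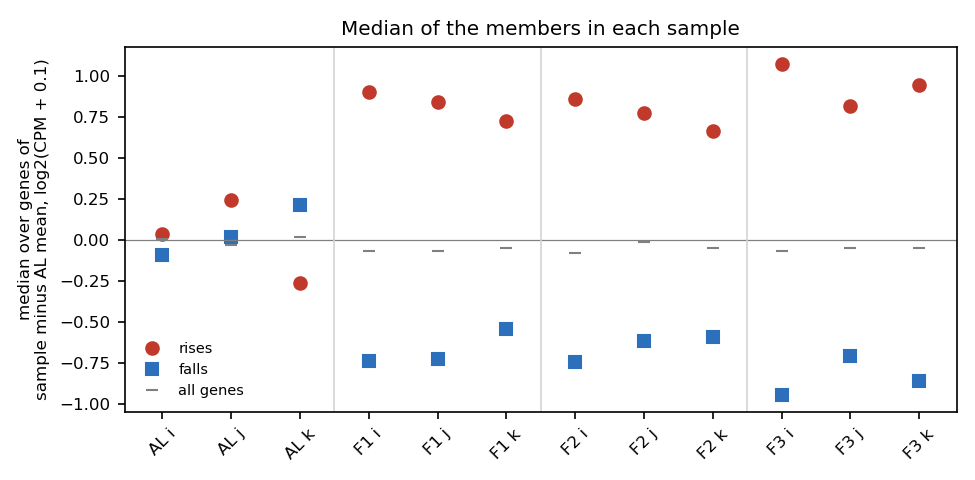
Median over the 67 rises (red circles), the 42 falls (blue squares) and all 9461 genes (grey dashes) of the level in each sample minus the AL mean (vertical axis, log2(CPM + 0.1)), for the 12 samples in their 4 groups (horizontal axis). AL j stands at 0.25 and AL k at -0.26 for the rises. Every fasted sample lies at 0.66 or more for the rises and at -0.54 or less for the falls. The rule that chose the members placed their fasted group means 0.5 or more from AL.

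The number of members depended on the AL samples. Without AL i the rule chose 82 falls instead of 42, of which 39 were among the 42, and without AL k it chose 29, of which 20 were. For the rises, the count was 75 without AL i, 92 without AL j and 53 without AL k. Over all 12 ways to leave 1 sample out, 18 rises and 7 falls were chosen every time. Akap12, Agpat2 and Alas1 among the named rises and Cacybp among the named falls were so, whereas Amotl2 and Arrdc3 were chosen in 8 of 12.

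To read the difference in samples that had no part in the choice, the rule was applied to the 8 samples of 2 letters and the chosen genes were measured in the 4 samples of the third. Chosen without letter i, 60 rises had a median difference of 0.79, 0.61 and 0.90 from AL i at F1, F2 and F3. Chosen without letter k, 43 rises had 0.96, 0.73 and 1.02. Chosen without letter j, 98 rises had 0.51, 0.25 and 0.47, less than the 0.83, 0.76 and 0.95 in the samples that chose them. All 3 fasted samples of the left-out letter lay above its AL sample for 88.3%, 62.2% and 93.0% of the rises chosen without i, j and k, against 20.3%, 19.9% and 19.1% of all genes. The 3 differences of a letter share its 1 AL sample and are therefore not independent.

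For the falls, medians in the samples left out were nearer to 0, and this difference from the rises was not tested. Chosen without i, 65 falls had median differences of -0.26, -0.37 and -0.49 in the samples of i, against -0.67, -0.71 and -0.85 in those that chose them. For the 69 falls chosen without j they were -0.31, -0.19 and -0.40, and for the 41 chosen without k -0.59, -0.47 and -0.84. All 3 fasted samples lay below the AL sample for 63.1%, 55.1% and 82.9% of these falls, against 48.6%, 23.4% and 42.1% of all genes. In the samples of i, the share of the falls was nearest to that of all genes. A difference of at least 0.5 on all 3 days was kept by 58.3%, 19.4% and 65.1% of the rises so chosen. It was kept by 18.5%, 11.6% and 41.5% of the falls so chosen, against at most 1.85% of all genes in either direction. The genes chosen in these rounds were not all members. Of those chosen without i, j and k, 47 of 60, 53 of 98 and 34 of 43 rises were among the 67. For the falls, 31 of 65, 23 of 69 and 22 of 41 were among the 42.

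**Figure D5:**
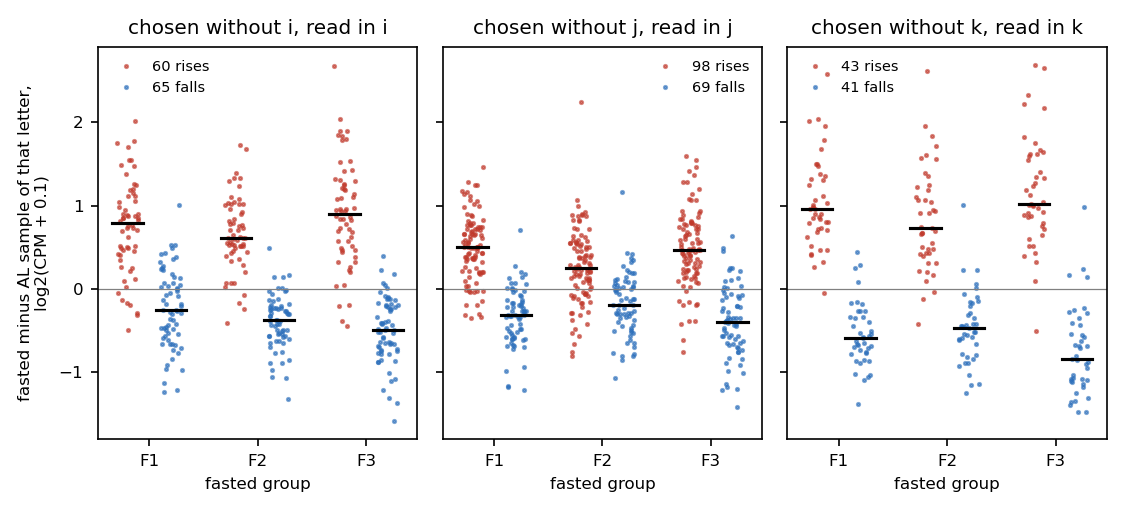
Difference of each fasted sample from the AL sample of the same letter (vertical axis, log2(CPM + 0.1)) at F1, F2 and F3 for genes chosen without that letter, with 1 panel per letter, rises in red, falls in blue and a black line at each median. Medians of the rises are above 0 and those of the falls below 0 in all panels, and the panel of letter j has the smallest rises, with medians of 0.25 to 0.51.

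Of the named members, Akap12, Agpat2, Alas1, Cacybp and Anxa1 were chosen in all 3 of these rounds. B3galt5, B4galt4, Arrdc3, Slc6a6 and Ahsa1 were chosen in 2, and Slc2a12, Angpt2, Apol9a, Bst2 and Amotl2 in 1.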

How the data were processed

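Messenger RNA of CECs from 12 samples, 3 per group, was sequenced from a strand-specific library as 4 technical replicates each, 48 files in all. The deposited values are raw counts per gene. According to the methods, the authors trimmed and filtered reads, aligned them with STAR, removed reads with more than 1 match and counted reads on Ensembl exons, and these counts were not normalized. The submitters' processing notes name bcl2fastq 2.18.0.12, HTSeq 0.5.3 and the build Rnor_6.0. Whether counting used the strand is not given in the sources used here, so that overlapping genes on opposite strands may not be separated.

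Counts of the technical replicates were summed. In F1 sample k, replicate d is titled F1 but labelled with a fast of 2 days. It was kept in F1, and left out as an alternative. CPM used total counts, and log2(CPM + 0.1) gave the differences. Samples held 20718644 to 25960874 reads, and 3 samples per group limit the precision. Genes with at least 1 read in each sample were tested in 1 model of all 12 samples with edgeR 4.0.16 (TMM, quasi-likelihood test) in R 4.3.3, with p-values adjusted over 13050 genes, after a check on simulated data. DESeq2 1.42.0 was an alternative. The standard error of a difference is the SD within groups times the square root of the sum of the inverse group sizes.

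The members and lists were chosen with earlier results of these data known. Named genes are members with a symbol that is not a clone or locus name, and genes with a symbol next to a limit of the rule. The 92 members without a symbol were counted, and 4 of them were chosen for naming by ID after their values had been seen. Relatives by symbol stem were also chosen after the data had been seen. Symbols and gene numbers came from the identifier columns of the supplementary tables. The symbol of Pecam1 alone came from the name of its feature in the deposited counts, which is not an Ensembl ID. Promoters came from RefSeq (GRCr8), matched for 14 of the 15 named members. No coordinate of Rnor_6.0 was used.

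Alternatives were other scalings, a pseudocount of 1, other limits and filters, medians, each sample left out, the sample letter as a block, the 6 samples of a comparison alone, and DESeq2.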

Additional observations from a re-analysis of the deposited data

How the results depend on the processing

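The number of members depended on the limits of the rule. The 67 rises became 107 with a filter of 10 mean reads, 36 with one of 1000, 43 with differences of at least 0.6 and 36 with fasted means within 0.3. The 42 falls became 84 with a filter of 10 mean reads, 22 with one of 1000, 105 with differences of at least 0.4, 17 with differences of at least 0.6, 65 with group medians and 27 with TMM library sizes (28 with DESeq2 size factors). When each sample was left out in turn, the rises numbered 53 to 92 and the falls 29 to 82, the latter without AL i.

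The number of members called by edgeR changed most at F2. When each sample was left out in turn, 30 to 58 rises were called at F1 (fewest without F1 j, with 32 without F1 i and 34 without AL i or AL k), 9 to 40 at F2 and 44 to 61 at F3. For the falls, 15 to 26 were called at F1 (fewest without F1 i), 4 to 17 at F2 and 23 to 34 at F3. Over all genes the share called higher then ran from 1.44% (without F1 j) to 6.37% at F1, from 0.176% to 0.950% at F2 and from 3.25% to 9.39% at F3, and the share called lower from 0.897% to 4.88%, 0.0996% to 0.567% and 2.76% to 8.87%. At F2, the rises called were 9 without AL k, 10 without F2 i, 17 without AL i and 40 without AL j, and the falls 6 without AL k and 4 without F2 i. At F2, 44 rises and 25 falls were called with no filter beyond 1 read in any sample (0.644% and 0.399% of all genes), 47 and 27 by the DESeq2 Wald test (1.80% and 1.46%), and 0 and 0 when edgeR fitted only the 6 samples compared. These were 0 calls among all 13050 genes too. An unadjusted p under 0.05 in this edgeR fit was reached by 62 rises and 38 falls, beside 4.63% and 4.41% of all genes. The rule chose the members on their F2 means in the same samples, so nothing is read from these 2 counts. The cause of the changes in the number called was not tested.

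Whether the letters i, j and k pair the samples is not settled, and the criterion that every pair correlate above 0.1 was not met. Samples with the same letter had correlations of their deviations from group means between -0.11 and 0.21, over 0.1 in 7 of 18 pairs, among them the 3 fasted pairs of letter i (0.17 to 0.21), and 6 of 12 samples correlated best with their own letter. With the letter as a replicate block, 56, 27 and 61 rises and 23, 17 and 29 falls were called at F1, F2 and F3, beside 3.4%, 0.544% and 5.95% of all genes higher and 2.33%, 0.406% and 5.54% lower. Leaving out technical replicate d of F1 sample k gave 66 rises and 42 falls, all of them members. Of 255 values of the named genes, that is the smallest difference under each scaling, pseudocount, median or set of samples, 254 stayed within 1 SD between samples of the main value, which leaves room for shifts such as those of Amotl2, 0 changed direction, and the other was that of Slc2a12 with medians. Alternatives added after seeing the data were the interferon element and other scalings and a pseudocount of 1 for the samples left out, under which 71.7% to 77.9% of the chosen rises and 59.3% to 65.6% of the chosen falls had the same sign on all days, against 76.6% and 64.6%.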
